A study of Homo sapiens with 10 samples.

Results

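The comparison was between 2 established cell lines, D425 and HD-MB03, both labelled Group 3 medulloblastoma, and it used all 10 libraries of the series, 6 of D425 and 4 of HD-MB03. The libraries carry numbers, and these fall into 2 sets. The high-number set (numbers of 100 or more) holds 3 D425 control libraries, of which replicates 1 and 2 were parental and replicate 3 carried the empty vector, and 2 HD-MB03 libraries labelled shCRX. The low-number set (numbers under 100) holds 3 D425 libraries labelled shCRX and 2 HD-MB03 controls, of which replicate 1 was parental and replicate 2 carried the empty vector. The label shCRX stands for a short hairpin RNA against the transcription factor CRX, switched on by doxycycline in a polyclonal cell population. The labels list doxycycline at 4 µg/ml over 72 h for all 10 libraries, parental cells included. Both lines were cultured in the same serum-containing medium, and each line stands for 1 tumour. The labels name no separate cultures for the libraries of a group, and the p-values therefore rest on a spread that may be technical.

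Line and arm change together inside a set: D425 controls face HD-MB03 labelled shCRX libraries in one set and D425 shCRX libraries face HD-MB03 controls in the other. A gene was therefore kept as different between the lines when it passed in both sets with the same direction, which was the case for 2982 of 16006 genes tested. The sets have no library in common. What the numbers stand for is not given by the labels.

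Group 3 medulloblastoma is a cerebellar tumour of childhood marked by high MYC and by genes of the retina and pineal gland, switched on by factors such as CRX, OTX2 and NRL. Cancer-testis genes, of which the MAGE families on the X chromosome are the best known, are normally read in germ cells and held silent elsewhere, in part through methylation of CG dinucleotides at their promoters. Photoreceptors come as rods and cones, which use separate copies of many of the same proteins, and NRL is the factor that sets rod identity.

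Reads counted in genes ranged from 11357936 to 18061910 per library in the high-number set and from 1956353 to 9533407 in the low-number set, with the HD-MB03 controls lowest. Levels below are in CPM, the counts of a gene per 1000000 counts of its library, scaled by edgeR's TMM factors, and 3 counts equal 0.168 CPM in the deepest library and 1.61 in the shallowest. Reads not aligned made up 30.9% and 26.4% of the HD-MB03 controls against 4.54% to 7.99% elsewhere. HD-MB03 labelled shCRX replicate 2 stood apart from its partner: 120 genes reached 2 CPM in it and stayed under 0.25 CPM in replicate 1, and 0 genes the other way, against 2 to 17 genes between D425 control libraries. Such counts were 1 to 86 between D425 shCRX libraries and 85 and 92 between the HD-MB03 controls, which were read less deeply. Of the 120 genes, 48 stood at 1 CPM or more in every D425 library and 26 under 1 CPM in every D425 library. The matching shares over all genes were not counted, so these counts stand without a background. Together the 120 genes summed to 980 CPM in replicate 2. The highest were AL035425.3, a sense-overlapping transcript, at 288 CPM against 0, and IRS4 at 58.2 against 0.143. LCP1, an actin-bundling protein of blood cells, stood at 44.0 CPM against 0. KRT8, an epithelial keratin, stood at 22.1 against 0.0715, and the homeobox gene HOXB9 at 12.7 against 0. The origin of these transcripts was not tested. Among marker lists of other cell types, the 12 fibroblast genes summed to 226 to 311 CPM in HD-MB03 and 29.7 to 87.2 in D425, with FAP at 0 everywhere. FBLN1 made up most of the HD-MB03 sum. The 12 glial genes summed to 134.8 to 226 CPM in HD-MB03, mostly CSPG4, and to 25.7 to 60.7 in D425, with S100B and OLIG1 at 0. The 12 blood and immune genes summed to at most 13.3 CPM in any library, with LYZ, MS4A1, CD3D, CD3E and HBB at 0. The epithelial and melanocyte genes summed to 204 to 541 CPM in the D425 controls, mostly the melanocyte enzyme gene DCT, and to 7.28 to 83.3 in the other groups, with KRT14 at 0. What part these cells or genes have in the line difference was not tested.

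CRX, the gene the hairpins target, was read at 47.5, 29.7 and 64.9 CPM in the D425 controls and at 20.3, 20.9 and 25.3 in the D425 libraries labelled shCRX. In HD-MB03 it stood at 12.5 and 12.3 CPM in the controls and at 27.7 and 23.5 in the libraries labelled shCRX, which goes against that label. D425 lay above HD-MB03 in each set without overlap, with a log2 fold change of 0.89 ± 0.29 (SE) and an adjusted p of 0.0355 in the high-number set and 0.83 ± 0.35 and 0.0861 in the low-number set, so CRX passed in 1 set only. That call ended with other libraries left out too. Without D425 control replicate 1 or 3 its adjusted p, by edgeR's quasi-likelihood test, was 0.0752 and 0.150. It also ended without HD-MB03 labelled shCRX replicate 1 or 2, with log2 fold changes of 1.01 and 0.77 and 1 library left in that group. Wherever a direction between arms is drawn below for HD-MB03, the labels are in doubt in this way.

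In the high-number set 5001 genes passed (31.2% of those tested), 2477 higher in D425 (15.5%) and 2524 higher in HD-MB03 (15.8%), by edgeR's quasi-likelihood test with a Benjamini-Hochberg adjusted p under 0.05. In the low-number set 4920 passed (30.7%), 2565 higher in D425 (16%) and 2355 higher in HD-MB03 (14.7%). The 2982 genes that passed in both with the same direction were 18.6% of all genes, 1502 of them higher in D425 (9.38%) and 1480 higher in HD-MB03 (9.25%). Only 13 genes (0.0812%) passed in both with opposite directions. Leaving out HD-MB03 labelled shCRX replicate 2 left 2255 same-direction and 3 opposite genes, and leaving out HD-MB03 control replicate 1 left 1883 and 4. Single HD-MB03 libraries also set the size of each set's count: the high-number set gave 3206 without HD-MB03 labelled shCRX replicate 1 and 3247 without replicate 2, and the low-number set gave 2483 without HD-MB03 control replicate 1 and 3262 without replicate 2. The lines did not overlap in 9826 genes (61.4%) in the high-number set and in 8952 (55.9%) in the low-number set, and did not overlap in either set, with the same direction, in 5934 genes (37.1%), of which the kept genes made up 2951.

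Fold changes of the sets went together, with standard deviations over genes of 1.87 in the high-number set and 2.40 in the low-number set. Across genes, which are not independent replicates, the log2 fold changes of the sets had a Pearson r of 0.777 and a Spearman rho of 0.701. Of the genes that passed in the high-number set, 94.2% had the same sign in the other, and 93.2% the other way, against 75.1% of all genes. Each set was also fitted by itself, so that no library or estimate of spread was shared. Read over the 12876 genes tested in both fits, 4764 passed in the high-number set. Of these, 52.4% also passed, with the same sign, in the low-number set, where 27.7% of the 12876 genes passed. In the other direction 69.9% of 3572 genes did, against 37% of the 12876. The high-number fit passed 5637 of 15641 genes and the low-number fit 3600 of 12927, and genes tested in 1 fit alone are outside these shares. Of the kept genes 72.6% had fold changes within 1 log2 unit between sets, with median absolute values of 1.98 and 2.17. As fitted, 245 genes higher in D425 and 311 higher in HD-MB03 lay beyond 4 log2 units in both. Over all genes tested, 248 in the high-number set and 995 in the low-number set had 0 counts in a group. Their fitted sizes depend on the small count added by the model.

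**Figure D1:**
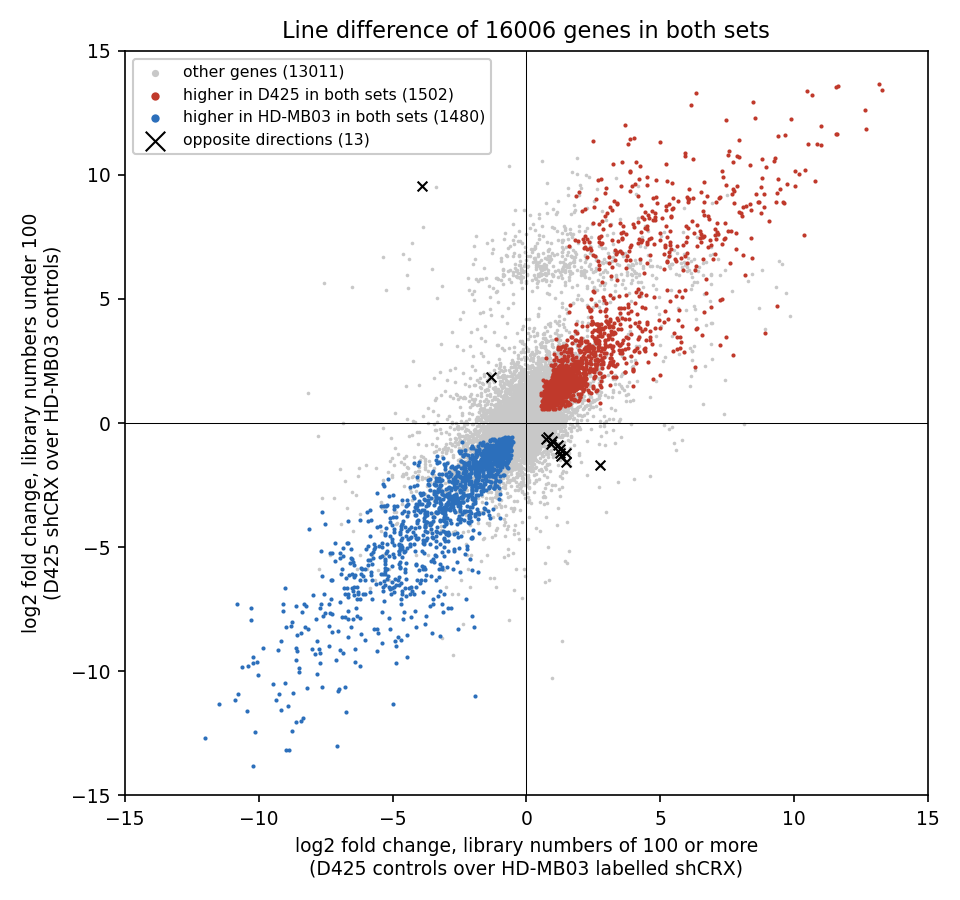
Each point is 1 of 16006 genes, with the log2 fold change of D425 over HD-MB03 in the high-number set on the x axis and in the low-number set on the y axis. The 1502 genes in red and 1480 in blue passed in both sets with the same direction, and the 13 crosses passed with opposite directions.

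Of the gene lists read, cancer-testis genes had the largest share of members in 1 direction. Of 21 tested, 15 were higher in D425 in both sets and 1, TEX14, was higher in HD-MB03, against 9.38% and 9.25% of all genes. The share is in part fixed by the filter on low counts: 21 of the 35 listed genes in the files were tested, 12 of these in the high-number set and 17 in the low-number set had 0 counts in 1 of the groups compared, so they could enter through the other groups alone. MAGEA12 stood at 140, 123 and 145 CPM in the D425 controls and at 119, 178 and 147 in the D425 shCRX libraries, and it had 0 counts in all 4 HD-MB03 libraries. Its level in D425 was at least 1452-fold higher, set against a floor of 3 counts summed over the HD-MB03 libraries. CTAG2, from the NY-ESO antigen family, was read at up to 142 CPM in the D425 controls and at 133, 212 and 188 CPM in D425 shCRX and had 0 counts in HD-MB03, at least 1480-fold lower. MAGEB2 stood at 103, 84.8 and 80.5 CPM in the controls, at 43.5, 62.7 and 42.7 CPM in the shCRX libraries and at 0 counts in HD-MB03. For all 3 genes the lines lay wholly apart, and both D425 groups held the gene.

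The fitted test placed MAGEA12 at adjusted p values of 7.78e-08 and 5.29e-07 in the high- and low-number sets. Fitted fold changes of genes at 0 in a group depend on the small count added by the model, so they are not printed for these genes. The list's median log2 fold change was 9.67 and 10.50 as fitted, and 7.72 and 5.35 with genes at 0 in a group placed at their bound, against −0.02 and 0.11 over all genes. GAGE1, MAGEA11, MAGEB1, MAGEC1, MAGEC2, MAGEA10, PAGE1, PAGE5, CSAG1 and PRAME followed the same direction. PRAME, a repressor of retinoic acid signalling, was the member read at substantial levels in both lines, at 428 to 523 CPM in the D425 controls, 273 to 402 in D425 shCRX, 75.5 and 87.4 in the HD-MB03 controls, with 107 and 98.3 in HD-MB03 labelled shCRX. Its log2 fold changes were 2.19 ± 0.23 and 2.09 ± 0.23. PRSS21, a serine protease of testis, and GTSF1, a partner of PIWI proteins in transposon silencing, are germ-cell genes outside the list that also had 0 counts in HD-MB03. PRSS21 was read at 61.4 to 99.7 CPM and GTSF1 at 36.6 to 56.9 CPM over the 6 D425 libraries.

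Promoters are shown for these genes because the group moved together. Bases from RefSeq, build GRCh38.p14, are printed 5′ to 3′ up to the base before the annotated start, in lower case with every CG dinucleotide in capitals. The positions are chrX:152698674-152698793 on the plus strand for MAGEA3, chrX:152769690-152769809 on the minus strand for MAGEA6 and chrX:152733637-152733756 on the plus strand for MAGEA12. CNNM1, the gene with the reverse pattern described further on, has its stretch at chr10:99329236-99329355 on the plus strand.
MAGEA3: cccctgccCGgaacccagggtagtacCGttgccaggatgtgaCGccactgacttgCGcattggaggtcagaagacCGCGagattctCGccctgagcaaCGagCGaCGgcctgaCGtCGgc
MAGEA6: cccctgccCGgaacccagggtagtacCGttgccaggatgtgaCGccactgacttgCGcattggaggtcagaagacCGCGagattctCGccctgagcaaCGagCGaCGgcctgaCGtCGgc
MAGEA12: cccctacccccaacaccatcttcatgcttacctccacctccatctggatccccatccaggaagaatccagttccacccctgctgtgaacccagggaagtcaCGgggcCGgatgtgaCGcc
CNNM1: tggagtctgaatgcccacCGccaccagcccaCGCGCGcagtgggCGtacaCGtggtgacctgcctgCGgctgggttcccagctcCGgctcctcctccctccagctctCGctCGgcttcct

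MAGEA3 and MAGEA6 had identical promoters over all 250 bases before the start, while MAGEA3 and MAGEA12 matched at 78 of 250 positions without gaps. These bases lie before the transcript, so they do not show how reads were placed, and transcripts were not compared. Members of the MAGE, GAGE, PAGE, CSAG and CTAG families may share transcript sequence, in which case reads cannot be placed between them with certainty. The sum of a family is safer than the split between its members. Over the 250 bases before the start, the motif CG, which reads the same on both strands, occurred a median of 9 times in the 13 cancer-testis genes of the kept group with a RefSeq promoter, 21 times over 10525 protein-coding genes tested, and 15 times or more in 42.7% of all 27305 promoters in the table. At least 1 CG was present in 93.6% of those. Genes kept as higher in D425 had a median of 20 and those higher in HD-MB03 a median of 21. These counts were made after the expression values were seen and describe the sequence alone.

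**Figure D2:**
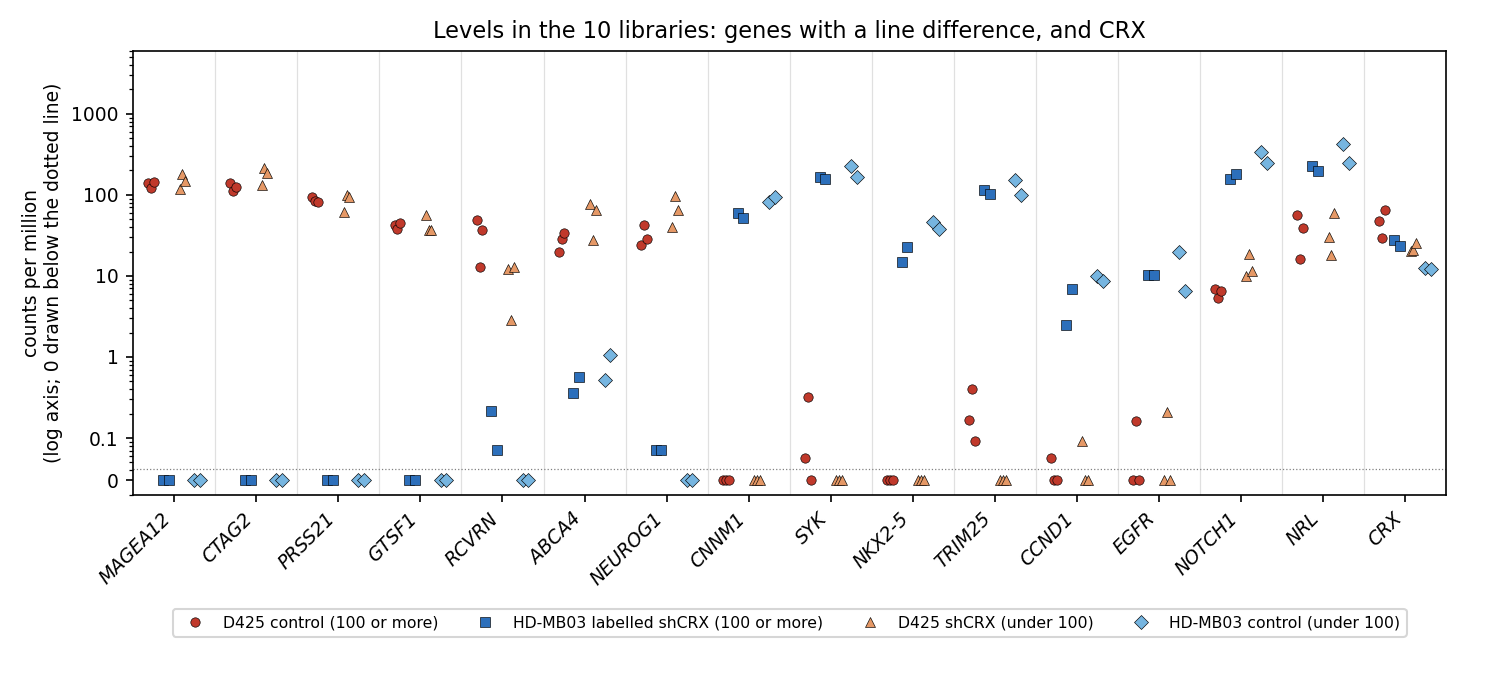
Each point is the level of a gene in 1 library, in CPM on a log axis, with values of 0 drawn below the dotted line and the 4 groups marked by colour and shape. From MAGEA12 to NEUROG1 the D425 libraries lie above the HD-MB03 libraries, from CNNM1 to NRL below them, and for CRX the lines lie close together.

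Genes of the photoreceptor were split between the lines, beside 9.38% of all genes higher in D425 and 9.25% higher in HD-MB03. Of 34 tested genes of phototransduction and the outer segment, 14 were higher in D425 and 5 in HD-MB03 in both sets, or 12 and 3 without HD-MB03 labelled shCRX replicate 2. The median log2 fold change was 1.73 and 0.89, or 1.73 and 0.71 with genes at 0 in a group at their bound. RCVRN, the calcium sensor recoverin, was read at 49.2, 12.8 and 37.2 CPM in the D425 controls, 12.2, 2.90 and 12.8 in D425 shCRX, 0 and 0 in the HD-MB03 controls, with 0.214 and 0.0716 in HD-MB03 labelled shCRX. ABCA4, the retinoid transporter of the outer segment, stood at 19.5, 28.8 and 34.2 CPM, at 77.2, 27.7 and 66 CPM, at 0.520 and 1.07 CPM, and at 0.357 and 0.573 CPM in the same order of groups. Its log2 fold changes were 5.84 ± 0.56 and 6.15 ± 0.70, with adjusted p values of 8.54e-06 and 4.68e-05. TULP1, a carrier protein of the photoreceptor, lay at 8.89 to 92.8 CPM over D425 and at 0 to 0.715 CPM over HD-MB03.

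Several genes that differed belong to one type of photoreceptor, and this grouping was made after their values were seen. Some cone genes passed as higher in D425 in both sets. GNAT2, the cone transducin, stood at 4.36 to 6.66 CPM in the D425 controls and 4.25 to 6.41 in D425 shCRX against 1.04 to 2.08 over HD-MB03. The cone phosphodiesterase gene PDE6C had log2 fold changes of 3.48 ± 0.63 and 4.63 ± 1.14, its inhibitory subunit PDE6H 4.07 ± 0.82 and 4.86 ± 1.12, and the cone transducin subunit GNGT2 3.34 ± 0.30 and 1.87 ± 0.32. CNGB3, the cone channel subunit, was read at 4.76 to 15.5 CPM over D425 and was seen in HD-MB03 only at 0.0715 CPM in the library labelled shCRX replicate 1. Of the other cone genes of the list, GNB3 and ARR3 passed in the high-number set alone, with adjusted p values of 0.656 and 0.108 in the low-number set, and GUCA1C passed in neither, at 0.23 and −0.38. Rod genes went both ways. The rod phosphodiesterase subunit PDE6B stood at 0.0909 to 0.448 CPM in the D425 controls, 0.738 to 2.05 in D425 shCRX, 6.77 and 8.58 in the HD-MB03 controls, with 12.8 and 9.24 in HD-MB03 labelled shCRX. SAG, the rod arrestin, was lower in D425 by log2 fold changes of −2.49 ± 0.60 and −4.00 ± 0.70, and the rod transducin subunit GNGT1 by −1.02 ± 0.29 and −2.63 ± 0.31. The rod channel genes CNGA1 and CNGB1 were higher in D425, at 4.60 ± 0.70 and 2.71 ± 0.58 in the high-number set, and were at 0 counts in both HD-MB03 controls. The call of CNGB1 in the low-number set, at an adjusted p of 0.0463, ended in 15 of 19 alternatives, 9 of them fits that left out 1 library.

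Among 11 tested photoreceptor transcription factors, 1 was higher in D425 and 3 were higher in HD-MB03, or 1 and 2 without HD-MB03 labelled shCRX replicate 2. Over all genes these shares were 9.38% and 9.25%. RAX2, a retinal homeobox factor, stood at 24.2, 18.5 and 14.2 CPM in the D425 controls and 5.72, 8.07 and 10.7 in D425 shCRX. Its highest HD-MB03 value was 0.0715 CPM. NRL stood at 56.5, 16.2 and 39.5 CPM, at 29.9, 18 and 59.9 CPM, at 422 and 246 CPM in the HD-MB03 controls and at 225 and 195 CPM in HD-MB03 labelled shCRX. Every HD-MB03 library lay above every D425 library, with log2 fold changes of −2.48 ± 0.50 and −3.23 ± 0.52. NEUROD1, a neuronal bHLH factor also used in cones, was higher in HD-MB03 by −1.92 ± 0.52 and −2.06 ± 0.52, and its adjusted p of 0.0149 in the high-number set became 0.0575 without HD-MB03 labelled shCRX replicate 2. OTX2 lay at 2382 to 2566 CPM in the D425 controls against 1757 and 1482 in HD-MB03 labelled shCRX, and at 1576 to 1994 in D425 shCRX against 1871 and 1650.3 in the HD-MB03 controls, so the lines overlapped in the low-number set.

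Other lineage factors separated the lines as well. For comparison, 9.38% of all genes were higher in D425 and 9.25% in HD-MB03 in both sets. Of 21 tested factors of the rhombic lip and cerebellar lineages, 6 were higher in D425 and 5 in HD-MB03, or 8 and 3 without HD-MB03 labelled shCRX replicate 2. NEUROG1, a proneural factor, was read at 24.2, 42.6 and 28.5 CPM in the D425 controls and 40.4, 97.2 and 65.7 in D425 shCRX, and at no more than 0.0716 CPM in HD-MB03. MAB21L2, a factor of eye and midbrain development, was read at 82.1 to 383 CPM over D425 and had 2 counts in all HD-MB03 libraries together. INSM1, a zinc-finger factor of neuroendocrine cells, went the other way, at 0.182 to 2.99 CPM over D425 against 56.2 and 227 in the HD-MB03 controls, with 30.8 and 40 in HD-MB03 labelled shCRX. Of 21 tested homeobox genes of the eye field and forebrain, 3 were higher in D425, NKX2-1 and SIX3 among them, and 5 in HD-MB03 (DLX5, DLX6, POU4F1, SIX2 and VAX2), or 5 and 4 without HD-MB03 labelled shCRX replicate 2. POU4F1, a factor of sensory neurons, stood at 10.9 to 22.2 CPM over D425 and at 116 to 178 over HD-MB03, with log2 fold changes of −3.39 ± 0.27 and −3.18 ± 0.28.

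Among 24 tested SOX factors and neural stem markers, 3 were higher in D425 and 8 in HD-MB03, against 9.38% and 9.25% of all genes. The median log2 fold change was −0.63 and −1.01. SOX9, a factor of glial and stem cells, lay at 0 to 0.273 CPM over D425, at 7.29 and 8.58 CPM in the HD-MB03 controls and at 8.93 and 11.1 in HD-MB03 labelled shCRX. SOX2 was read at 5.73 CPM in HD-MB03 control replicate 1 and at 0 in replicate 2, and at 1.93 and 5.08 CPM in HD-MB03 labelled shCRX, against at most 0.256 CPM over D425. Its call in the low-number set, at an adjusted p of 0.0170, therefore rested on control replicate 1, and without that library the log2 fold change turned from −5.43 to 2.41 with SOX2 read in neither remaining group above 1 count per library. The D425 side held IGF2BP1, an RNA-binding protein of fetal tissue, at 219 to 306 CPM against 0.500 to 1.61 CPM in 3 HD-MB03 libraries and 25.7 CPM in HD-MB03 labelled shCRX replicate 2. Its log2 fold change in the high-number set was 4.49 ± 0.95, or 9.16 without that library. LIN28B, a blocker of let-7 maturation, was higher in D425 by 1.45 ± 0.28 and 2.15 ± 0.32, and SOX21 was the third.

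HD-MB03 held its own group of genes that D425 lacked. CNNM1, a membrane protein related to magnesium transporters, had 0 counts in all 6 D425 libraries and stood at 82.2 and 94.4 CPM in the HD-MB03 controls, with 59.2 and 51.6 in HD-MB03 labelled shCRX, at least 1203-fold above the floor of 3 counts. SYK, a kinase of immune receptor signalling, was read at 227 and 168 CPM and at 167 and 157 CPM in HD-MB03, and at 0.0560, 0.323 and 0 CPM in the D425 controls and 0 in D425 shCRX. TRIM25, a ubiquitin ligase of the RIG-I pathway, stood at 151 and 98.7 CPM and at 116 and 103 CPM in HD-MB03 and at no more than 0.403 CPM in D425. PARP12, an interferon-induced gene, lay at 21.1 to 29.7 CPM in HD-MB03 and had 2 counts in D425. The heart homeobox gene NKX2-5, at 15 to 45.8 CPM in HD-MB03, and the death receptor gene TNFRSF10A, at 10.7 to 19.8 CPM, had 0 counts in D425. C4orf54 had 3 counts in D425 and 141 to 210 CPM in HD-MB03, a ratio of 3538 with a 95% Poisson interval of 1210 to 17161 that covers counting error alone. FBLN1, an extracellular matrix protein, stood at 211 to 280 CPM in HD-MB03 and at 0 to 0.726 CPM in D425. MT3, a brain metallothionein, had 0 counts in D425 and 21.9 CPM in HD-MB03 control replicate 1, but 1.61 CPM in replicate 2.

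Counting genes with at most 3 reads over a whole line, 144 tested genes were near absent in D425, 87 of them protein-coding and 47 with 0 counts, and 368 were near absent in HD-MB03, 209 of them protein-coding and 149 with 0 counts. The pooled floor of 3 counts equals 0.0492 CPM over the D425 libraries and 0.0943 over the HD-MB03 libraries, so the lines differ in how low a level this rule admits. Without HD-MB03 labelled shCRX replicate 2 the HD-MB03 count was 763, with the same limit on fewer reads, an alternative chosen after seeing the data. Such genes passed the filter on low counts only through the other line, so the direction of a call was largely set by this rule. Those kept in both sets were 106 of the 144 and 175 of the 368, beside 18.6% of all genes tested. Besides the genes above, NCAM2, a neural adhesion molecule, lay at 38.3 to 91.5 CPM in D425 with 2 counts in HD-MB03. Promoters of genes near absent in HD-MB03 held a median of 8.5 CG over 250 bases (158 genes) and those of genes near absent in D425 a median of 17 (67 genes). Over protein-coding genes tested the median was 21. TFCP2, a broadly expressed transcription factor, showed how 1 library can decide such a count: it stood at 62.2 to 77.9 CPM over D425 and at 0, 0.536, 0 and 6.37 CPM in HD-MB03 control replicates 1 and 2 and HD-MB03 labelled shCRX replicates 1 and 2.

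The count of HOX genes depended on the same library, and of 39 listed 9 were tested. Of 9 tested, 0 passed in both sets, and with HD-MB03 labelled shCRX replicate 2 left out 4 of the 8 still tested (HOXA13, HOXB7, HOXD9 and HOXD13) passed as higher in D425 in both. HOXD13, a distal limb homeobox gene, stood at 13.4 to 20.8 CPM in the D425 controls and 12.1 to 18.2 in D425 shCRX, at 0 in both HD-MB03 controls, and at 0.143 CPM in HD-MB03 labelled shCRX replicate 1 against 9.24 in replicate 2. Its adjusted p in the high-number set was 0.14 with that library and 6.41e-05 without it. HOXC6 passed as higher in HD-MB03 in the high-number set alone, at −5.65 ± 1.34. Over all genes 9.38% were higher in D425 in both sets and 9.25% in HD-MB03. Among members not tested, HOXD10 and HOXA5 had 257 and 203 counts over HD-MB03 against 7 and 3 over D425. Of these, 256 and 203 lay in a single library each. HOXB13, HOXC13 and HOXD12 had more counts in D425, 17, 32 and 2 against 7, 30 and 1. The HOX genes were chosen after their values were seen.

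Cell-cycle regulators that passed in both sets were higher in HD-MB03. Of 18 genes of D-type cyclins, CDK4/6, CDK inhibitors and the RB and E2F families, 9 were higher in HD-MB03 and 0 in D425 in both sets, or 6 and 0 without HD-MB03 labelled shCRX replicate 2, with medians of −0.87 and −0.92, and 1 member passed as higher in D425 in the low-number set alone. CCND1, cyclin D1, had 1 count in the D425 controls and 1 in D425 shCRX, and stood at 9.89 and 8.58 CPM in the HD-MB03 controls, with 2.50 and 6.80 in HD-MB03 labelled shCRX. CCND2, cyclin D2, was read at 16.2, 29.4 and 18.7 CPM in the D425 controls, 2.12, 0 and 0.767 in D425 shCRX, 582 and 352 in the HD-MB03 controls, with 197 and 203 in HD-MB03 labelled shCRX. Among the 9 were 4 inhibitors of the kinases. CDKN1A, which codes for p21, stood at 0.672 to 13.8 CPM over D425 and 64.2 to 117.1 over HD-MB03, and CDKN1B, which codes for p27, had log2 fold changes of −1.65 ± 0.23 and −1.48 ± 0.24. CDKN1C, which codes for p57, had −5.33 ± 0.92 and −6.36 ± 1.08, with 25 and 3.22 CPM in the HD-MB03 controls. CDKN2C also passed, at −0.99 and −1.76, while CDKN2D had 1.08 and 1.41 with adjusted p values of 0.0998 and 0.0868. Of 34 genes of DNA replication and mitosis, 2 (CENPF and MKI67) were higher in HD-MB03 and 0 in D425, against 9.25% and 9.38% of all genes, with medians of −0.63 and −0.57.

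Of 26 receptor tyrosine kinases, 3 were higher in D425 and 7 in HD-MB03, against 9.38% and 9.25% of all genes. The list's median changed sign between sets, −0.48 and 0.50. EGFR stood at 19.8 and 6.43 CPM in the HD-MB03 controls and 10.2 in each HD-MB03 labelled shCRX library, and had 2 counts in the D425 controls and 1 in D425 shCRX. ERBB3, a partner of EGFR family receptors, had log2 fold changes of −3.27 ± 0.39 and −2.05 ± 0.42. The D425 side was ALK, at 4.61 to 18.6 CPM over D425 and at most 0.520 in HD-MB03, PDGFRB, at 3.58 ± 0.37 and 3.22 ± 0.40, and the collagen receptor gene DDR2, at 33.5 to 131 CPM over D425 against 1.07 to 2.72 in 3 HD-MB03 libraries and 15.7 in replicate 2 of HD-MB03 labelled shCRX. The log2 fold change of DDR2 in the high-number set was 3.39 ± 0.71, or 5.14 without that library. Among 16 Eph receptors and ephrins, 6 were higher in HD-MB03 and 0 in D425, or 4 and 0 without HD-MB03 labelled shCRX replicate 2, with medians of −1.43 and −1.21. EFNB2, the ephrin-B2 ligand, lay at 0 to 0.545 CPM over D425 and 9.86 to 17.2 over HD-MB03, and its receptor EPHA4 at 0 to 1.09 and 5.73 to 14.2.

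Of 13 SHH pathway genes, 5 were higher in HD-MB03 and 0 in D425: the receptor PTCH1 at −1.31 ± 0.20 and −1.85 ± 0.21, the co-receptors BOC at −4.50 ± 0.43 and −4.56 ± 0.46 and GAS1 at −5.84 ± 0.73 and −5.52 ± 0.87, the target and effector GLI1 at −2.15 ± 0.35 and −1.56 ± 0.38, and the inhibitor SUFU. The medians of the 13 SHH pathway genes were −0.92 in the high-number set and −0.18 in the low-number set. BOC stood at 0.273 to 1.21 CPM in the D425 controls, 1.02 to 2.05 in D425 shCRX, 38.5 and 31.6 in the HD-MB03 controls, with 18.9 and 17.5 in HD-MB03 labelled shCRX. Of 30 WNT pathway genes, 1 was higher in D425 (FZD2) and 9 in HD-MB03, or 3 and 6 without HD-MB03 labelled shCRX replicate 2. Among the 9, the ligand WNT3 had −2.88 ± 0.42 and −2.56 ± 0.46 and the receptor FZD8 −2.97 ± 0.35 and −2.86 ± 0.38. SP5, a target of WNT signalling, had 0 counts in the D425 controls and 5 in D425 shCRX and lay at 1.79 to 9.11 CPM in HD-MB03. Of 20 NOTCH pathway genes, 1 was higher in D425 (MAML2, a coactivator) and 4 in HD-MB03. Beside the SHH, WNT and NOTCH counts, 9.38% of all genes were higher in D425 and 9.25% in HD-MB03. The receptor NOTCH1 stood at 5.41 to 6.89 CPM in the D425 controls, 10.1 to 18.4 in D425 shCRX, 336 and 250 in the HD-MB03 controls, with 156 and 178 in HD-MB03 labelled shCRX, with log2 fold changes of −4.73 ± 0.27 and −4.47 ± 0.27. The ligand JAG1 followed, at −1.79 ± 0.36 and −1.82 ± 0.38.

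TGF-beta and activin genes belong to the pathway named in the study's title, and they passed near the background: 2 of 26 were higher in D425 and 4 in HD-MB03, with medians of 0.00 and −0.03. The ligand TGFB2 stood at 0.161 to 0.182 CPM in the D425 controls, 0 in D425 shCRX, 21.9 and 23.1 in the HD-MB03 controls, with 29 and 17.8 in HD-MB03 labelled shCRX. SMAD3, which carries the signal to the nucleus, was lower in D425 by log2 fold changes of −1.02 ± 0.20 and −1.49 ± 0.20. The receptors ACVR1, at 1.56 ± 0.27 and 1.58 ± 0.30, and TGFBR3, at 2.27 ± 0.47 and 1.56 ± 0.49, were higher in D425. Of 21 BMP pathway genes, 2 passed each way, or 4 higher in D425 and 1 in HD-MB03 without HD-MB03 labelled shCRX replicate 2, against 9.38% and 9.25% of all genes. The medians were −0.18 and 0.92, and the antagonist NOG lay with D425, at 13.1 to 19.6 CPM against 5.36 and 5.66 in the high-number set and 74.2 to 85.6 against 19.8 and 11.8 in the low-number set.

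Of 17 genes of MHC class I and its loading, 4 were higher in HD-MB03 in both sets and 1, HLA-E, in D425. The shares over all genes were 9.25% and 9.38%. The peptide transporter subunits TAP1 and TAP2 had log2 fold changes of −2.80 ± 0.41 and −3.26 ± 0.46, and of −3.76 ± 0.39 and −6.10 ± 0.55. TAPBP, which tethers the transporter to class I, stood at 9.36 to 14.2 CPM in the D425 controls, 3.84 to 6.55 in D425 shCRX, 77 and 40.2 in the HD-MB03 controls, with 64.4 and 61.8 in HD-MB03 labelled shCRX. Of 20 tumour suppressors open to deletion or silencing, 1 was higher in D425 and 5 in HD-MB03. MGMT, the enzyme that repairs alkylated guanine, had 0 counts in the D425 controls and 1 in D425 shCRX, and stood at 12 and 10.2 CPM in the HD-MB03 controls, with 15.3 and 18.8 in HD-MB03 labelled shCRX. MTAP, a methionine salvage enzyme, was lower in D425 by log2 fold changes of −2.01 ± 0.25 and −2.54 ± 0.27. TIMP3, an inhibitor of matrix proteases, was the exception at 305 to 1047 CPM over D425 against 11.7 to 44.0 over HD-MB03.

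Of 26 voltage-gated channel genes, 4 were higher in D425 and 9 in HD-MB03, or 2 and 8 without HD-MB03 labelled shCRX replicate 2, against 9.38% and 9.25% of all genes. Among the 9 were CACNA1H, a low-voltage calcium channel with 3 counts in D425 and 14.5 to 48.2 CPM in HD-MB03, and KCNH2, the hERG channel, at −4.63 ± 0.35 and −4.63 ± 0.37. SCN3B, a sodium channel subunit, lay with D425 at 4.33 ± 0.41 and 4.66 ± 0.55. Of 16 GABA-A and glutamate receptor genes, 4 passed each way. GABRA3 stood at 4.76 to 15.4 CPM over D425 with 0 counts in HD-MB03, while the Group 3 marker GABRA5 stood at 23.2 to 45 CPM in the D425 controls, 6.55 to 12 in D425 shCRX, 128 and 108 in the HD-MB03 controls, with 92.1 and 77.4 in HD-MB03 labelled shCRX. Of 24 cadherins and neural adhesion genes, 2 were higher in D425 and 5 in HD-MB03, or 3 and 3 without HD-MB03 labelled shCRX replicate 2, and of 39 collagens, laminins and integrins 4 and 8. The medians of both lists changed sign between sets. They were −0.38 and 0.46 for the adhesion genes and −0.69 and 0.33 for collagens, laminins and integrins. COL11A1, a fibrillar collagen, lay at 72.8 to 207 CPM over D425 with 2 counts in HD-MB03, and the laminin gene LAMC3 at 0 to 0.0923 CPM over D425 against 7.16 to 19.3 in HD-MB03. Of 29 genes of synapse and neuronal differentiation, 1 and 4 passed, against 9.38% and 9.25% of all genes.

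Group 3 markers differed in part between the lines. Of 8 tested, MAB21L2 was higher in D425 and NRL, GABRA5 and IMPG2 in HD-MB03, and the 10 markers together summed to 3181 to 6580 CPM over D425 and to 7089 to 8889 over HD-MB03, most of it from MYC and OTX2. The untested markers were NPR3, with 22 counts in D425 and 1 in HD-MB03, and EOMES, with 0 and 3. MYC stood at 2031 to 2974 CPM in the D425 controls against 3514 and 4113 in HD-MB03 labelled shCRX, with an adjusted p of 0.165, and at 968 to 1981 CPM in D425 shCRX against 5221 and 3944 in the HD-MB03 controls, with a log2 fold change of −1.50 ± 0.29 and an adjusted p of 0.0023. The lines did not overlap in either set. PVT1, the non-coding neighbour of MYC, was higher in D425, at 132 to 196 CPM and 332 to 650 CPM against 13.4 to 20.8 over HD-MB03. TBR1, a T-box factor, was higher in HD-MB03 by −4.36 ± 0.37 and −4.96 ± 0.40, and CDK6 by −0.70 ± 0.25 and −0.83 ± 0.26, a call that ended in 14 of 21 alternatives in the high-number set and in 6 of 21 in the low-number set. Of 21 imprinted genes, 3 were higher in D425 and 1 in HD-MB03, against 9.38% and 9.25% of all genes. MEST, a paternally expressed gene, lay at 53.4 to 81.2 CPM over D425, at 0 in both HD-MB03 controls and at 0.429 and 0.358 CPM in HD-MB03 labelled shCRX. Classifier genes of the other subgroups were too few to describe as lists, with 2 of WNT, 3 of SHH and 2 of Group 4 tested. TNC, from the WNT list, and PDLIM3, from the SHH list, were higher in HD-MB03, but TNC stood at 418 and 35.9 CPM in the HD-MB03 controls and its adjusted p in the high-number set rose from 0.0345 to 0.107 without HD-MB03 labelled shCRX replicate 2.

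Single libraries moved many of these counts, and a group left with 1 library was assumed to vary like the others. Without HD-MB03 control replicate 1, the outer segment genes higher in D425 went from 14 to 7, and those higher in HD-MB03 went from 9 to 5 for cyclins and CDK inhibitors, from 7 to 4 for receptor tyrosine kinases, from 5 to 3 for the SHH pathway and for tumour suppressors, and from 4 to 2 for the NOTCH pathway and the neurotransmitter receptors. Without HD-MB03 control replicate 2, the outer segment genes higher in D425 numbered 9, the receptor kinases higher in HD-MB03 4, the rhombic lip factors 2, the eye field genes 3 and the BMP genes 0. Without HD-MB03 labelled shCRX replicate 1, those higher in HD-MB03 numbered 2 for the outer segment, 5 for cyclins and CDK inhibitors, 5 for SOX factors, 2 for rhombic lip factors and 3 for the eye field, and those higher in D425 numbered 2 for voltage-gated channels. Voltage-gated channels higher in D425 also numbered 2 without HD-MB03 control replicate 1, and GABA-A and glutamate receptors higher in D425 2 without replicate 2. Rhombic lip factors higher in HD-MB03 numbered 3 without D425 control replicate 2 or 3. For TGF-beta genes higher in D425 the count was 4 without D425 shCRX replicate 2 and 1 without D425 shCRX replicate 3 or either HD-MB03 control, and imprinted genes higher in D425 numbered 5 without D425 shCRX replicate 2. The genes of DNA replication and mitosis higher in HD-MB03 numbered 0 without D425 shCRX replicate 1, D425 shCRX replicate 3 or HD-MB03 control replicate 2, and 4 without D425 shCRX replicate 2 or HD-MB03 control replicate 1. The cancer-testis genes higher in D425 numbered 14 to 16 in the fits that left out 1 D425 library. Of the 21 tested, 12 in the high-number set and 17 in the low-number set had 0 counts in a group. The filter on low counts therefore in part fixed this count.

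Some genes named above lost a call with 1 library left out. In the low-number set, leaving out HD-MB03 control replicate 1 ended the calls of CDKN1C, ERBB3, GAGE1, GLI1, GNAT2, HLA-E, JAG1, MAGEB1, PDE6C, PDE6H, RCVRN, SOX21, TGFBR3 and TNC, with adjusted p values from 0.0536 for MAGEB1 to 0.226 for TNC. Leaving out HD-MB03 control replicate 2 ended those of ALK, CDK6, CENPF, GAGE1, GNAT2, HLA-E, MAML2, MKI67, NEUROD1, PDE6B, PDE6H, PDLIM3, RCVRN, SOX21, TEX14 and TGFBR3, from 0.0547 for ALK to 0.674 for TEX14. Leaving out D425 shCRX replicate 1 or 3 ended those of CDK6, CENPF, MKI67, TGFBR3 and TNC. Replicate 1 also ended those of GAGE1 and SOX2, and replicate 3 those of HLA-E and TEX14. The low-number call of GAGE1 ended in 13 of 21 alternatives. In the high-number set, leaving out HD-MB03 labelled shCRX replicate 1 ended the calls of CDK6, GAGE1, GNAT2, GNGT1, IMPG2, MKI67, NEUROD1, PDLIM3, SAG and TNC, from 0.0528 for GNGT1 to 0.510 for CDK6, and without replicate 2 GAGE1 stood at 0.0549 and GNGT1 at 0.101. The call of CDK6 there also ended without each of the 3 D425 controls, that of GNGT1 without D425 control replicate 3 and that of NEUROD1 without D425 control replicate 2 or 3. All these are by edgeR's quasi-likelihood test with Benjamini-Hochberg adjustment.

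**Figure D3:**
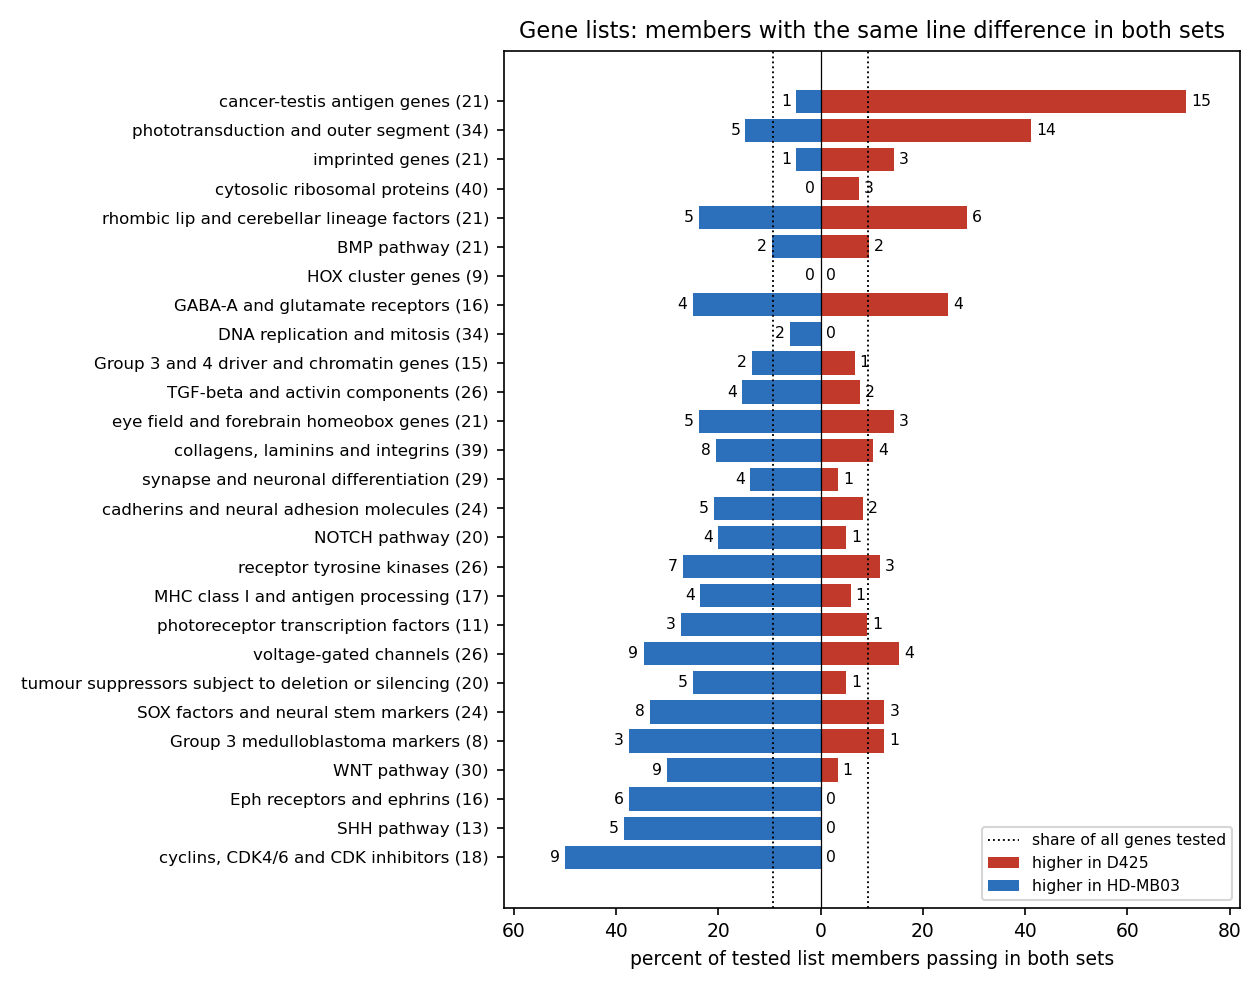
Bars give, for each gene list with at least 8 tested members (number in brackets), the percent of tested members that passed in both sets as higher in D425 (right, red) or in HD-MB03 (left, blue), with the number of genes at the end of the bar. Dotted lines mark the share among all genes, 9.38% and 9.25%, and cancer-testis genes (15 of 21) and cyclins and CDK inhibitors (9 of 18) lie farthest from them.

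Some stretches of neighbouring genes differed in the same direction. Runs were found by sliding a window of 25 tested protein-coding neighbours along each chromosome, in the gene order of the reference annotation, and joining windows whose median passed 1 log2 unit in the same direction in both sets. Of 12397 windows, 9 runs resulted, and the window medians of the sets had a correlation of 0.811 over overlapping windows. The longest ran from NADSYN1 to GLB1L2 over 267 genes, with median log2 fold changes of 1.05 and 1.33, against −0.04 and −0.29 over the other 462 genes of that chromosome. In it 144 genes (53.9%) passed as higher in D425 in both sets, 7 as higher in HD-MB03, and 223 were positive in both. Over all genes 9.38% and 9.25% passed as higher in D425 and in HD-MB03, and 75.1% had the same sign, positive or negative, in both sets. NTM, a neural adhesion gene of this run, stood at 81.8, 72.3 and 98.1 CPM in the D425 controls, 93.6, 14.5 and 62.7 in D425 shCRX, 2.08 and 1.07 in the HD-MB03 controls, with 4.72 and 2.79 in HD-MB03 labelled shCRX. OPCML, a member of the same family, lay at 8.39 to 63.9 CPM over D425 with 0 in the HD-MB03 controls. The run was chosen by these values, so its medians describe it and are not a test, and DNA copy number was not measured here.

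**Figure D4:**
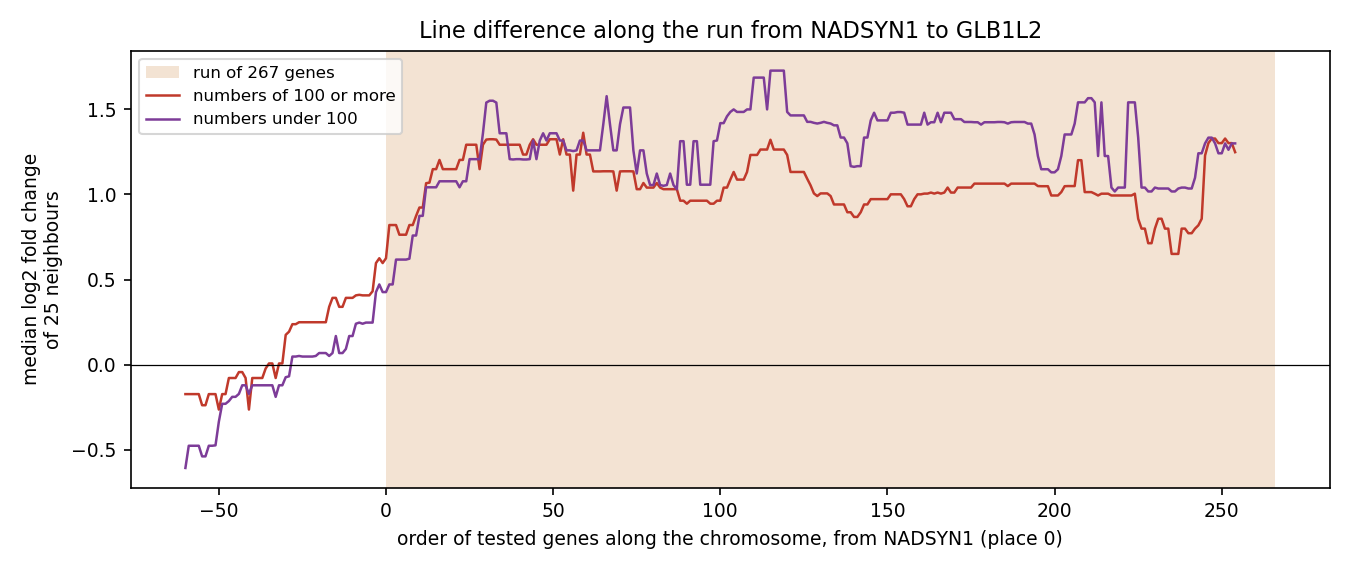
Lines give the median log2 fold change of 25 neighbouring tested genes in the high-number set (red) and the low-number set (purple) against gene order, with place 0 at NADSYN1 and the run of 267 genes shaded. Both lines rise near the start of the run and stay above 0 throughout it.

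The other runs were shorter. Higher in D425 were 54 genes from MOSPD1 to TREX2, which hold the MAGEA genes and had medians of 1.10 and 1.36, 31 genes from FANCB to MBTPS2 and 31 from EFCAB13 to SLC35B1. The rest of the chromosome also lay toward D425, with medians of 0.59 and 0.88 beside the run from MOSPD1, 0.61 and 0.92 beside that from FANCB and 0.33 and 0.14 beside that from EFCAB13. The run from FANCB held PPEF1, a phosphatase expressed in photoreceptors, at 83.6 to 228 CPM over D425 and at most 0.643 CPM in HD-MB03. Higher in HD-MB03 were 51 genes from NID2 to TRMT5, 41 from E2F3 to H3C12, 38 from WDR55 to RNF14, 32 from COA6 to COX20 and 30 from ZNF616 to ZNF761. Among these, the run from WDR55 held the protocadherin-beta genes, with PCDHB3 at 0 to 0.414 CPM over D425 and 22.8 to 30.9 over HD-MB03, and the run from ZNF616 held clustered zinc-finger genes such as ZNF677, at −2.17 ± 0.36 and −1.60 ± 0.39, the second no longer passing without HD-MB03 control replicate 2 (adjusted p = 0.0700). In the run from E2F3, the iron regulator HFE had 0 counts in D425 and lay at 4.65 to 7.81 CPM in HD-MB03.

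For a few genes the line difference was not the same in both sets. The difference between the sets passed for 36 genes (0.225%), 33 of them positive (0.206%) and 3 negative (0.0187%), where positive means a larger value in the high-number set, and 2118 had an unadjusted p under 0.05. A shift that raises a gene equally in both lines of a set cancels in this test, and it equals the summed difference between controls and shCRX libraries over both lines. The count was 3, all positive, without HD-MB03 labelled shCRX replicate 2, and 71, of which 55 were negative, without HD-MB03 labelled shCRX replicate 1. It was 14 without D425 control replicate 3, 18 without D425 control replicate 1, 15 without HD-MB03 control replicate 1 and 16 without HD-MB03 control replicate 2, so neither this count nor its direction was stable. Of the 36 genes, 9 passed as the same direction in both sets, as did CCND2: its log2 fold change was −3.22 ± 0.42 in the high-number set and −8.56 ± 0.57 in the low-number set, a difference of 5.34 with an adjusted p of 0.0147. IGFBP2, a carrier of insulin-like growth factors, stood at 26.3, 22.8 and 12.7 CPM in the D425 controls, 0.461, 0 and 0.767 in D425 shCRX, 142 and 107 in the HD-MB03 controls, with 74.6 and 86.9 in HD-MB03 labelled shCRX. SIX3, an eye-field factor, stood at 41.9 to 51.6 CPM in the D425 controls, 60.9 to 75.9 in D425 shCRX, 4.16 and 16.6 in the HD-MB03 controls, with 0.143 and 0.286 in HD-MB03 labelled shCRX. MBNL3, a splicing regulator, had the reverse order, with log2 fold changes of −5.56 ± 0.29 and −2.84 ± 0.27.

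Of the 13 genes with opposite directions, the ribosomal protein gene RPL8 had 2239, 2367 and 2481 CPM in the D425 controls, 2338, 2070.5 and 2458 in D425 shCRX, 4539 and 3868 in the HD-MB03 controls, with 982 and 1097 in HD-MB03 labelled shCRX, so the D425 groups were alike and the HD-MB03 groups lay on either side. ARHGAP26, a GTPase-activating protein, differed within D425 instead, at 113 to 185 CPM in the controls and 9.60 to 26.6 in D425 shCRX, with 60.9 and 31.1 CPM and 68.1 and 42 CPM in HD-MB03. It no longer passed in the high-number set without HD-MB03 labelled shCRX replicate 2 (adjusted p = 0.145) or D425 control replicate 3, nor in the low-number set without HD-MB03 control replicate 1 (adjusted p = 0.251) or D425 shCRX replicate 1 or 2. KIF1A, an axonal motor, stood at 2.22 and 28.4 CPM in HD-MB03 labelled shCRX replicates 1 and 2, and without replicate 2 its adjusted p in the high-number set was 0.328. Ribosomal protein genes as a list did not follow the line. Over all genes 9.38% were higher in D425 in both sets, 9.25% in HD-MB03 and 0.0812% opposite. Lower in D425 were 14.7% of all genes in the low-number set and 15.8% in the high-number set. Of 40 ribosomal protein genes, 3 were higher in D425 in both sets (RPL10, RPL23 and RPS3), 0 in HD-MB03 and 2 opposite (RPL8 and RPL27). In the low-number set 17 were lower in D425, against 0 in the high-number set. Of the 3, 1 was left without HD-MB03 labelled shCRX replicate 2, where RPL10 had an adjusted p of 0.213, RPL23 of 0.0891 and the opposite gene RPL27 of 0.0794 in the high-number set, and 1 was left without HD-MB03 labelled shCRX replicate 1 or HD-MB03 control replicate 1. RPS3 lost its low-number call without either HD-MB03 control and RPL23 without HD-MB03 control replicate 1 or D425 shCRX replicate 3. The high share of reads not aligned and the low depth of the HD-MB03 controls fall together with the low-number set, and their part in this was not tested.

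**Figure D5:**
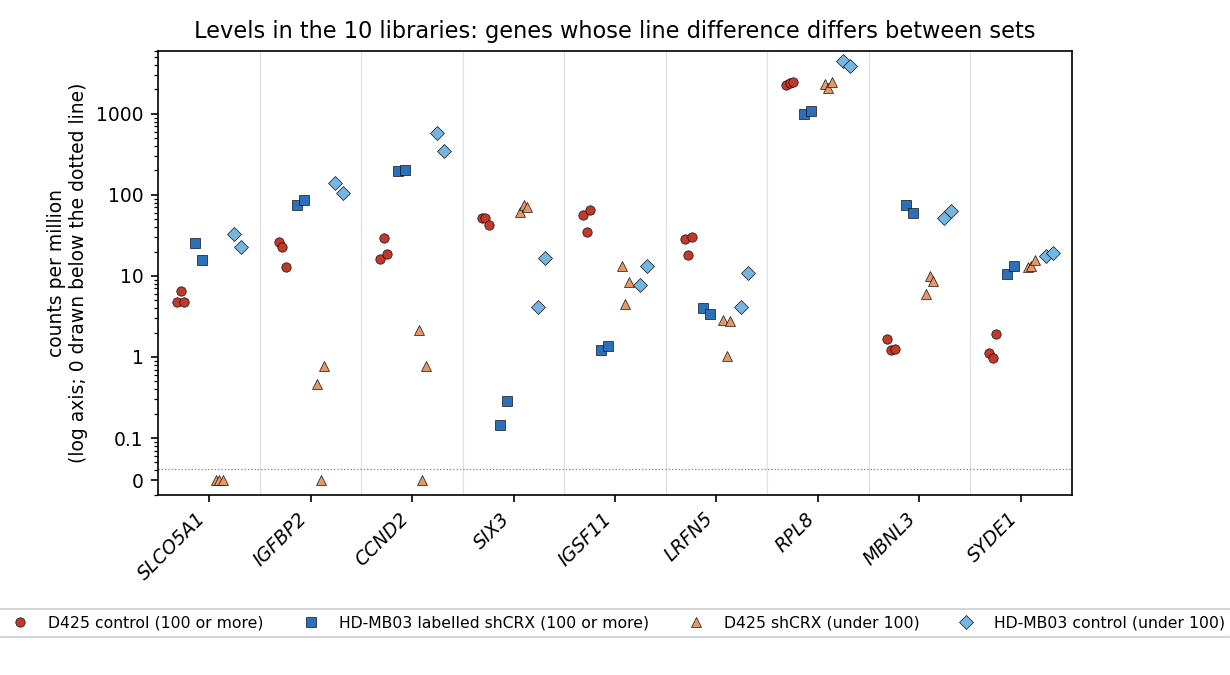
Each point is the level of a gene in 1 library, in CPM on a log axis with 0 drawn below the dotted line, for 9 named genes whose line difference differed between the sets. CCND2 and IGFBP2 are low in D425 shCRX and high in HD-MB03 controls, and RPL8 is alike in both D425 groups but not in both HD-MB03 groups.

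Contrasts that cross the sets compare like arms, but they reuse the same libraries and mix the sets. D425 controls against HD-MB03 controls gave 5486 genes (34.3%), 2792 higher in D425 (17.4%) and 2694 in HD-MB03 (16.8%), and the shCRX libraries of the lines gave 5247 (32.8%), 2699 (16.9%) and 2548 (15.9%). The mean of the line difference over both sets, in which arm and set cancel if they act alike in both lines, passed for 7365 genes (46%), 3905 higher in D425 (24.4%) and 3460 higher in HD-MB03 (21.6%). For NOTCH1 the log2 fold change was −5.54 between controls and −3.66 between shCRX libraries, beside −4.73 and −4.47 in the sets. For NRL these were −3.15 and −2.56, beside −2.48 and −3.23.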

How the data were processed

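RNA was poly-A selected, and the deposited files hold whole-number counts per gene for 10 libraries, made with HISAT2 and HTSeq on GRCh37, per the submitters' processing notes, which also list DESeq2. The strand setting is not given in the sources used here, so antisense and overlapping genes, and near-identical copies, are uncertain. From the deposited counts, edgeR 4.0.16 (R 4.3.3) fitted 1 quasi-likelihood model over 16006 genes kept by filterByExpr, with TMM scaling, 4 groups and 6 residual degrees of freedom. The estimated biological coefficient of variation was 26.0%. A gene passed at a Benjamini-Hochberg adjusted p under 0.05. Log2 fold changes are D425 over HD-MB03, with SE. The 5 summary entries of each file were left out. Alternatives used DESeq2 1.42.0, limma 3.58.1, other scalings and filters, and fewer libraries. The fit was tested on simulated data.

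Named genes were, ranked by the smaller of the 2 sets' absolute fold changes, the top 15 per direction of kept protein-coding genes with at least 10 CPM in the higher line, up to 10 opposite genes, up to 4 kept members per list and the largest genes of each neighbour run, together with the top 6 each way for the difference between sets and the top 10 near-absent genes per line. A few genes that the rule names are not reported here. The HD-MB03 labelled shCRX pair, further list members, the cone and rod genes, MYC, OTX2, TFCP2, the HOX genes and the promoters were added after values were seen. Members and lists were chosen with earlier results of these data known.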

Additional observations from a re-analysis of the deposited data

Results flagged for a closer look

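For 9 named genes the line difference itself differed between the sets by the test of that difference, in edgeR's quasi-likelihood fit over all genes, where 36 genes (0.225%) passed. Values are log2 fold changes of D425 over HD-MB03 in the high-number set minus those in the low-number set. SLCO5A1, an organic anion transporter, had a difference of 9.09 ± 0.98 (adjusted p = 0.0071) and was read at 4.81, 6.54 and 4.82 CPM in the D425 controls but at 0 in all 3 D425 shCRX libraries. Since those libraries were at 0, its fitted size is no bound. IGFBP2 had a difference of 6.24 ± 0.63 (adjusted p = 0.0030), CCND2 of 5.34 ± 0.71 (adjusted p = 0.0147) and SIX3 of 4.98 ± 0.69 (adjusted p = 0.0147).

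The adhesion gene IGSF11 had a difference of 5.54 ± 0.66 (adjusted p = 0.0071), with 34.9 to 64.8 CPM in the D425 controls, 4.55 to 13.4 in D425 shCRX, 7.81 and 13.4 in the HD-MB03 controls, with 1.22 and 1.36 in HD-MB03 labelled shCRX. The synaptic adhesion gene LRFN5 had a difference of 4.44 ± 0.67 (adjusted p = 0.0210) and changed direction between the sets. RPL8 differed by 2.06 ± 0.27 (adjusted p = 0.0106). In the negative direction were MBNL3, at −2.72 ± 0.40 (adjusted p = 0.0169), and the GTPase-activating protein gene SYDE1, at −2.78 ± 0.48 (adjusted p = 0.0455). SYDE1 stood at 0.968 to 1.91 CPM in the D425 controls and 12.8 to 15.9 in D425 shCRX, against 10.6 to 19.3 over HD-MB03.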

How the results depend on the processing

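Depth limits low genes in the HD-MB03 controls most, where 3 counts equal 1.56 and 1.61 CPM. Of the 2982 genes kept, 97.2% were kept with DESeq2's size factors, 92.2% with library totals, 95.9% with DESeq2, 82.6% with limma-voom, 77.5% with each set fitted alone and 71.1% with libraries thinned to equal depth, with no change of sign; 1193 were kept in every fit that left out 1 library. With vector controls alone the high-number set, the low-number set, the kept genes, the mean over sets and the difference between sets gave 2599, 1832, 1151, 4613 and 0 genes, and 8 of the 2982 changed sign. With parental controls alone the low-number set gave 3052, the kept genes 1784 and the difference between sets 2. The difference between sets also gave 18 genes with library totals, 401 with DESeq2, 405 with no filter on low counts and 61 with a stricter one; the cause was not tested. Library totals moved the median of the low-number set by 0.20 and its split of 2565 higher and 2355 lower in D425 (52.1% higher) to 3498 and 1847 (65.4%). Leaving out 1 library at a time gave 3206 to 5538 genes in the high-number set, 2483 to 5451 in the low-number set, 1883 to 3305 kept, 5942 to 7883 for the mean and 3 to 71 for the difference between sets.

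Directions turned for a few genes. HD-MB03 labelled shCRX replicate 1 had 0 counts of HOXA3, HOXB7 and HOXB9, so their sizes without replicate 2 depend on the small count added by the model. HOXD8 and HOXD9 stood there at 0.214 and 0.143 CPM, where 3 counts equal 0.214. HD-MB03 control replicate 2 had 0 counts of SOX2 and MBP, so the same limit holds for their sizes without replicate 1. In the high-number set, without HD-MB03 labelled shCRX replicate 2, HOXA3 went to 6.82, HOXB7 to 6.04, HOXB9 to 5.42, HOXD8 to 1.47 and HOXD9 to 3.75, the highest values with 1 library left out, the lowest being −1.48, −1.45, −4.37, −1.47 and −2.53, and limma-voom gave HOXA3 2.02, HOXB7 1.66 and HOXD9 0.54. In the low-number set, SOX2 and MBP went to 2.24 and 2.22 with vector controls alone and to 2.41 and 2.40 without HD-MB03 control replicate 1, the lowest with 1 library left out being −7.84 and −8.84. IGSF11, near 0 there, went to 0.23 with parental controls alone, 0.12 without D425 shCRX replicate 2 and 0.23 without HD-MB03 control replicate 2, with −0.68 as its lowest, and OTX2, with 1 library left out, ranged from −0.0092 without D425 shCRX replicate 3 to 0.22. A replicate block gave 5124, 4990, 3034, 7520 and 47 genes in the order of results above, and HOXB7 0.0074 in the high-number set. Between groups other than the HD-MB03 controls, the differences of replicate 1 minus replicate 2 had correlations of 0.0137, 0.0553 and 0.0090. With 1 such difference per group, this cannot decide whether the numbers pair libraries. Among the other values of named genes, 8147 kept their direction and side of the threshold, 426 lost and 25 gained the call.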
